A study of Mus musculus with 9 samples.

Results

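The 42 genes described here were listed as enzymes and transporters that build, sialylate, fucosylate and sulphate the O-linked glycans of intestinal mucins. Some are known for other glycans, such as *Fut8* for N-linked glycans and *B3gnt5* for glycolipids. The 42 were listed by name and role rather than by a threshold on measured values. They were chosen with earlier results of these data known, so their counts beside the shares of all genes are descriptive. All 42 had at least 1 probe set paired with their symbol alone, 96 probe sets in all, of the 18162 genes and 45037 non-control probe sets on the array. Values are hybridisation signals in linear array units, scaled by the authors to a common trimmed mean, and each gene was read by its brightest probe set. A gene was called higher or lower, or is said to have risen or fallen, where limma gave an adjusted p under 0.05. Limma is a linear model, here fitted on log2 signal across all tested probe sets. With probe sets kept only at a geometric mean signal of at least 85.9, 40 of the 42 genes were tested, and *St6galnac1* and *Fut1* were not.

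The samples were 9 arrays of large intestine from mice aged 8 weeks, 1 array per mouse and 3 mice per group. *Eeyore* mice are of mixed C57BL/6 and NOD-SCID strain and carry a serine to proline change in the D4 domain, near the C-terminus, of *Muc2*, the main secreted mucin of the colon. *Winnie* mice are C57BL/6 and carry a cysteine to tyrosine change in the N-terminal D3 domain of the same protein. Wild-type mice were C57BL/6. Each mutant is 1 line that began from a founder treated with the mutagen N-ethyl-N-nitrosourea. Proximal and distal RNA of each mouse were combined in equal amounts, so regions of the bowel cannot be told apart.

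Mucin O-glycosylation begins in the Golgi when a polypeptide N-acetylgalactosaminyltransferase attaches N-acetylgalactosamine to serine or threonine. That sugar is then elongated into core structures, extended and branched, and capped with sialic acid, fucose or sulphate. Core 3 structures are a feature of the colon, and the acidic caps give colonic mucus its histochemical staining with alcian blue and high-iron diamine.

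Several measurements over the whole arrays bear on every comparison with wild type. The labels call all 9 mice male, but *Xist*, the transcript made from the inactive X chromosome, had signals of 65.7 to 107 in *Eeyore* and 9.13 to 61.8 in *Winnie*, against 7371 to 8261 in wild type. The Y-linked *Eif2s3y* had signals of 1193 to 1320 in *Eeyore* and 1074 to 1454 in *Winnie*, against 4.73 to 24.1 in wild type. The wild-type arrays therefore go against their label, and effects of sex and of the *Muc2* allele cannot be told apart in either comparison with wild type, nor can strain background in *Eeyore*. All 3 wild-type arrays show this pattern, so no subset without it exists, while both mutant groups carry the Y-linked signal. The difference between *Eeyore* and *Winnie* uses no wild-type mean, although all 9 arrays share the fit's estimate of the spread. Median signals per array were 95.5 to 99.3 in *Eeyore* and 87.9 to 95.2 in *Winnie*, against 118 to 129 in wild type.

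Markers of other cells also moved with genotype. All 10 smooth muscle markers fell in both mutants, with summed signals of 52779 to 58618 in *Eeyore* and 65146 to 71079 in *Winnie*, against 139180 to 144608 in wild type. The 6 epithelial markers summed to 135620 to 152271 in *Eeyore* and 134638 to 142439 in *Winnie*, against 118446 to 119675 in wild type. Of 13 goblet cell markers, 4 fell and 2 rose in *Eeyore* and 7 fell and 2 rose in *Winnie*, and their summed signals were 356663 to 436712 in *Eeyore* and 252597 to 308411 in *Winnie*, against 416459 to 479360 in wild type. Fibroblast markers summed to 25164 to 28240 in *Eeyore* and 23363 to 28888 in *Winnie*, against 34725 to 36454 in wild type, and myeloid markers to 7945 to 15621 in *Eeyore* and 7817 to 12639 in *Winnie*, against 6048 to 6767 in wild type. Of the 6 fibroblast markers 3 fell in *Eeyore* and 2 in *Winnie*, and of the 7 myeloid markers 3 rose in *Eeyore* and 2 in *Winnie*. The part of these shifts in the results below was not tested. In whole tissue, fewer cells of a type and less RNA per cell cannot be told apart.

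The substrate itself changed. *Muc2* had signals of 36854, 35935 and 32542 in *Eeyore* mice and 34791, 25759 and 35694 in *Winnie* mice, against 85946, 75006 and 70046 in wild-type mice. Every mutant mouse lay below every wild-type mouse. On the wild-type arrays *Muc2* reached 97.4% to 100% of the highest signal of the array, against 38.7% to 48.1% in *Eeyore* and 39.6% to 50.8% in *Winnie*, and saturation of its wild-type signal was not tested. The log2 change was -1.13 ± 0.12 (SE, limma adjusted p = 7.7e-05) in *Eeyore* and -1.27 ± 0.12 (limma adjusted p = 8.0e-05) in *Winnie*, and the strains did not differ past the threshold (0.14 on the log2 scale, limma adjusted p = 0.622).

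The glycan genes did not follow 1 direction. In *Eeyore*, 8 of the 40 tested genes rose and 10 fell, where 30.6% of all 11446 tested genes were called (14.0% higher and 16.6% lower). In *Winnie*, 10 rose and 10 fell, where 23.2% of all tested genes were called (11.3% higher and 12.0% lower). The median log2 change over the 40 genes was -0.03 in *Eeyore* and -0.13 in *Winnie*, beside -0.04 and -0.05 over all genes in the same 2 comparisons. The signals of mutant and wild-type mice did not overlap for 23 of the 40 genes in *Eeyore* (46.0% of all tested genes) and 26 in *Winnie* (44.0% of all tested genes). Called falls of at least 2-fold numbered 4 in *Eeyore* (7.20% of all tested genes) and 2 in *Winnie* (4.67% of all tested genes). Both comparisons use the same 3 wild-type arrays. The balance of rises and falls depended on scaling: with arrays centred on their median signal, 15 rose and 5 fell in *Eeyore* and 14 rose and 3 fell in *Winnie*, and with arrays centred on the 6 epithelial markers 5 rose and 16 fell in each. The median of all tested probe sets moved too, to 0.235 in *Eeyore* and 0.321 in *Winnie* with median centring. With epithelial centring it moved to -0.324 and -0.360. Shares of all tested genes called under these scalings were not counted, so these counts cannot be read as particular to the 40 genes. Of the called changes, 10 of 18 in *Eeyore* and 8 of 20 in *Winnie* kept their call under both of these scalings and under quantile normalisation.

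**Figure D1:**
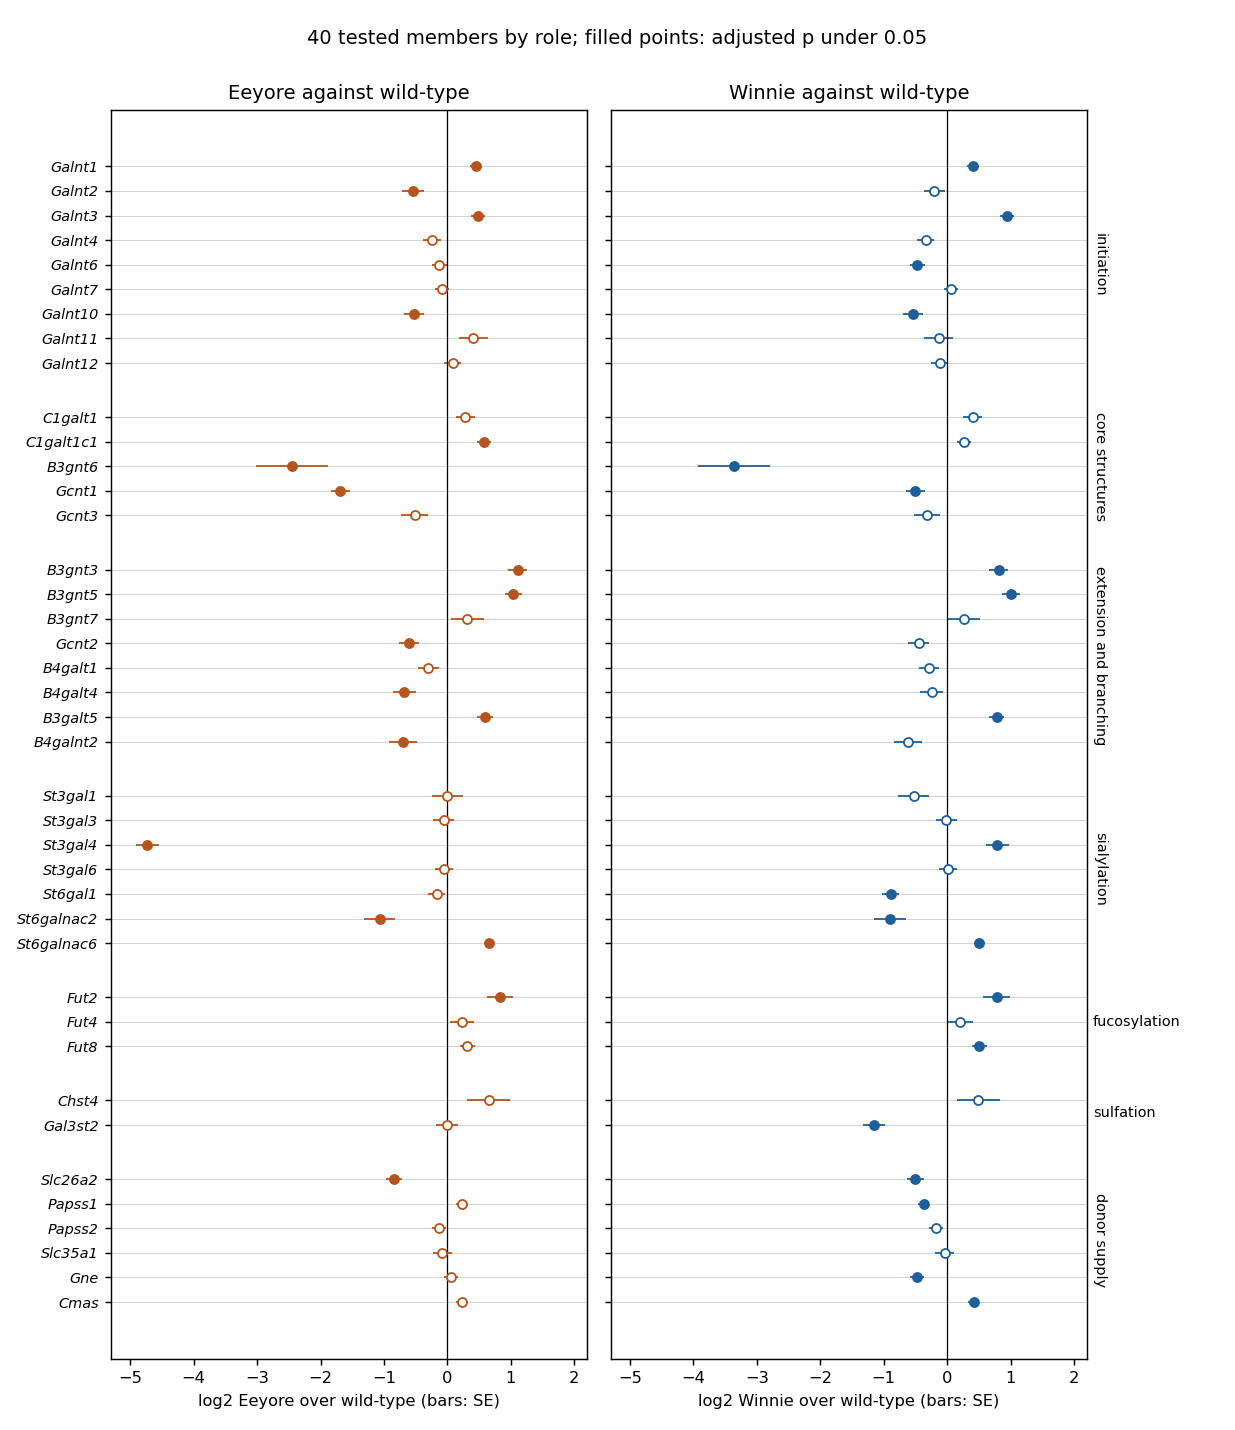
Log2 change of the 40 tested genes in *Eeyore* (left) and *Winnie* (right) over wild type, grouped by role from initiation at the top to donor supply at the bottom. Points are limma estimates from 3 mice per group, bars are standard errors, and filled points have an adjusted p under 0.05. *St3gal4* in *Eeyore* (-4.73) and *B3gnt6* in *Winnie* (-3.36) lie farthest below 0.

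Among the 9 initiating transferases, 2 rose and 2 fell in each mutant. *Galnt3* rose in both, with signals of 2293 to 2979 in *Eeyore* and 3493 to 3623 in *Winnie*, against 1785 to 1926 in wild type. Its log2 change was 0.48 ± 0.11 in *Eeyore* (limma adjusted p = 0.00730) and 0.94 ± 0.11 in *Winnie* (limma adjusted p = 3.0e-04), and the groups did not overlap. Averaging its 3 probe sets, 1 of them too dim to test, gave 1.07 in *Eeyore* (adjusted p = 0.0577) and 0.97 in *Winnie* (adjusted p = 0.0953), so the calls were lost while the changes were no smaller, and the rise in *Eeyore* was also lost with centring on epithelial markers. *Galnt1*, which acts broadly on unglycosylated peptides, rose by 0.45 in *Eeyore* and 0.41 in *Winnie*, and both calls were lost under that same centring.

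*Galnt10*, which prefers peptides that already carry a sugar, fell by 0.53 in *Eeyore* and fell by 0.54 in *Winnie*. *Galnt2* fell by 0.54 in *Eeyore* and *Galnt6* fell by 0.47 in *Winnie*. None of these 4 falls held with centring on the array median, and each was lost without single arrays (without wild-type mouse 1 in all 4, with adjusted p of up to 0.108). Averaging the 3 probe sets of *Galnt10* gave -1.86 in *Eeyore* (limma adjusted p = 2.06e-04) and -0.39 in *Winnie* (limma adjusted p = 0.187). Of these probe sets 1 was too dim to test, with mean signals of 4.84 in *Eeyore* and 98.1 in *Winnie*, against 126 in wild type. *Galnt4*, *Galnt7*, *Galnt11* and *Galnt12* were not called in either mutant, with log2 changes of -0.34 to 0.41. The probe sets of *Galnt7* differed: the brightest one was not called, while another, with mean signals of 4390 in *Eeyore* and 4881 in *Winnie* against 6043 in wild type, fell by 0.46 in *Eeyore* and fell by 0.31 in *Winnie*. Those of *Galnt6* differed too: another one, with means of 659 in *Eeyore* and 369 in *Winnie*, against 427 in wild type, was called higher in *Eeyore* than in wild type (0.63, limma adjusted p = 0.0112) and than in *Winnie* (0.84, limma adjusted p = 0.0138).

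The core-forming enzymes included the steepest fall that was called in both strains. *B3gnt6*, the core 3 synthase, had signals of 222, 196 and 145 in *Eeyore* mice and 166, 29.6 and 194 in *Winnie* mice, against 1177, 1275 and 690 in wild-type mice. All 6 mutant mice lay below all 3 wild-type mice, and *Winnie* mouse 2 stood apart at the low end. Its signal of 29.6 was below 85.9, the lowest geometric mean tested, and could not be told from background. The fall was 5.47-fold in *Eeyore* (log2 -2.45 ± 0.57, limma adjusted p = 0.00733) and 10.3-fold in *Winnie* (log2 -3.36 ± 0.57, limma adjusted p = 0.00200). Without *Winnie* mouse 2 the *Winnie* fall was 5.63-fold (log2 -2.49, limma adjusted p = 7.42e-04). The strains did not differ past the threshold (0.91 ± 0.57 on the log2 scale, limma adjusted p = 0.488). *B3gnt6* has a single probe set.

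*Gcnt1*, which makes the core 2 branch, had signals of 470, 453 and 386 in *Eeyore* mice and 855, 1135 and 997 in *Winnie* mice, against 1418, 1439 and 1346 in wild-type mice. The 3 groups did not overlap, with *Eeyore* lowest. In *Eeyore* it fell 3.22-fold (log2 -1.69 ± 0.15, limma adjusted p = 1.8e-05), and it was 2.27-fold lower in *Eeyore* than in *Winnie* (log2 -1.19 ± 0.15, limma adjusted p = 8.3e-04). The smaller fall in *Winnie* (log2 -0.50 ± 0.15, limma adjusted p = 0.0291) was lost when any of 5 of its 6 arrays was left out or when arrays were centred on the median. Another, dimmer probe set of *Gcnt1* averaged 273 in *Eeyore* and 231 in *Winnie*, against 224 in wild type, and was not called, so the fall rests on 1 probe set. With both averaged, the change was -0.70 in *Eeyore* (limma adjusted p = 0.0177) and -0.23 in *Winnie* (limma adjusted p = 0.401), and the strain difference was -0.47 (limma adjusted p = 0.249).

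*C1galt1c1*, the X-linked chaperone needed for core 1 synthesis, had signals of 6782 to 8665 in *Eeyore* and 5814 to 6881 in *Winnie*, against 4789 to 5562 in wild type. It rose in *Eeyore* (log2 0.58 ± 0.11, limma adjusted p = 0.00271) and was not called in *Winnie* (0.27, limma adjusted p = 0.101). *C1galt1*, the core 1 synthase it serves, was not called on its brightest probe set (0.28 in *Eeyore* and 0.40 in *Winnie*). Its other probe sets were called higher in both strains, by 0.73 and 0.59 in *Eeyore* and by 0.94 and 0.62 in *Winnie*. *Gcnt3*, the core 2 and core 4 branching enzyme, was not called on its brightest probe set, with log2 changes of -0.52 in *Eeyore* (limma adjusted p = 0.0769) and -0.32 in *Winnie*. It was called lower in *Eeyore* on another, dimmer probe set (-0.71, limma adjusted p = 0.0341), with its probe sets averaged (-0.56, limma adjusted p = 0.0443), and on the brightest one under quantile normalisation (-0.64), centring on epithelial markers (-0.75) and the replicate block.

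Extension enzymes held the called rises of at least 2-fold, 2 in *Eeyore* (2.41% of all tested genes) and 1 in *Winnie* (1.75% of all tested genes). *B3gnt3*, which extends core 1, had signals of 2267, 2743 and 2624 in *Eeyore* mice and 1727, 2531 and 2005 in *Winnie* mice, against 1242, 1080 and 1221 in wild-type mice. Every mutant mouse lay above every wild-type mouse. It rose 2.15-fold in *Eeyore* (log2 1.11 ± 0.15, limma adjusted p = 3.1e-04) and 1.75-fold in *Winnie* (log2 0.81 ± 0.15, limma adjusted p = 0.00305).

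*B3gnt5*, known as the enzyme that starts lacto-series glycolipids, had signals of 5119, 4754 and 5304 in *Eeyore* mice and 4515, 5626 and 4817 in *Winnie* mice, against 2045, 2375 and 3070 in wild-type mice. The mutant mice again lay wholly above wild type, and the mutant groups overlapped each other. It rose 2.05-fold in *Eeyore* (log2 1.04 ± 0.14, limma adjusted p = 3.7e-04) and 2.02-fold in *Winnie* (log2 1.01 ± 0.14, limma adjusted p = 7.3e-04). A dimmer probe set gave 0.72 in *Eeyore* and 0.66 in *Winnie* and was not called.

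*B3galt5*, which makes type 1 chains, was among the brightest members, with signals of 9309 to 10825 in *Eeyore* and 10095 to 13440 in *Winnie*, against 5903 to 7628 in wild type. It rose by 0.59 ± 0.12 in *Eeyore* (limma adjusted p = 0.00407) and 0.78 ± 0.12 in *Winnie* (limma adjusted p = 0.00136), and 3 of its 4 probe sets were called higher in each strain. These rises, like those of *B3gnt3* and *B3gnt5*, held under every scaling tried.

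On their brightest probe sets, 3 extension enzymes fell in *Eeyore* and were not called in *Winnie*, and no strain difference was called for any of them. *B4galnt2*, which makes the Sda antigen, had signals of 8456 to 10034 in *Eeyore* and 6346 to 13974 in *Winnie*, against 13412 to 16475 in wild type. Its log2 change was -0.70 ± 0.22 in *Eeyore* (limma adjusted p = 0.0293) and -0.61 ± 0.22 in *Winnie* (limma adjusted p = 0.0620), while another of its probe sets was called in *Winnie* (-0.61, limma adjusted p = 0.0266) and not in *Eeyore* (-0.45, limma adjusted p = 0.0706). *Gcnt2*, the I-branching enzyme, gave -0.61 in *Eeyore* (limma adjusted p = 0.0146) and -0.45 in *Winnie* (limma adjusted p = 0.0675), while a dimmer probe set fell in both (-1.02 in *Eeyore*, limma adjusted p = 0.0260, and -1.01 in *Winnie*, limma adjusted p = 0.0331). *B4galt4* gave -0.68 in *Eeyore* (limma adjusted p = 0.0138) and -0.24 in *Winnie* (limma adjusted p = 0.360). None of these 3 *Eeyore* falls held with centring on the array median. That of *B4galnt2* was also lost without any of the *Eeyore* mice or without wild-type mouse 1 or 2 (adjusted p of 0.0522 to 0.0922), that of *B4galt4* without wild-type mouse 1 or 2 (adjusted p of 0.0516 to 0.0567) and that of *Gcnt2* without *Eeyore* mouse 2 (adjusted p = 0.0577). *B3gnt7* and *B4galt1* were not called in either strain.

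The widest strain difference of the 40 genes was in sialylation. *St3gal4*, which adds sialic acid to terminal galactose, had signals of 56.4, 63.4 and 68.3 in *Eeyore* mice and 2593, 3207 and 2853 in *Winnie* mice, against 1476, 1457 and 2142 in wild-type mice. The *Eeyore* mice lay far below both other groups, and the *Winnie* mice lay wholly above wild type. The *Eeyore* signals were also raised to 85.9, the lowest geometric mean at which a probe set was tested. The *Eeyore* signal was then at least 19.4-fold below wild type and at least 33.5-fold below *Winnie*. The measured log2 differences were -4.73 ± 0.18 (limma adjusted p = 2.5e-08) and, against *Winnie*, -5.52 ± 0.18 (limma adjusted p = 6.2e-09), while *Winnie* rose 1.73-fold (log2 0.79 ± 0.18, limma adjusted p = 0.00916).

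Each *Eeyore* signal of *St3gal4* was below 85.9, and array detection calls were not used here, so any transcript in *Eeyore* could not be told from background. Whether the probes match the sequence of the gene in the mixed strain of *Eeyore* was not tested. The gene has a single probe set, so no other one could be set beside it. Of the 8 protein-coding genes to either side of it on chromosome 9 in the RefSeq gene order (GRCm38.p6), 11 were tested. Their log2 differences between *Eeyore* and *Winnie* ran from -0.43 to 0.53, and 0 of the 11 were called by limma (2 at an unadjusted p under 0.05). Against wild type their changes in *Eeyore* ran from -0.66 to 0.49, and 1, *Cdon*, was called (-0.66, limma adjusted p = 0.0321).

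**Figure D2:**
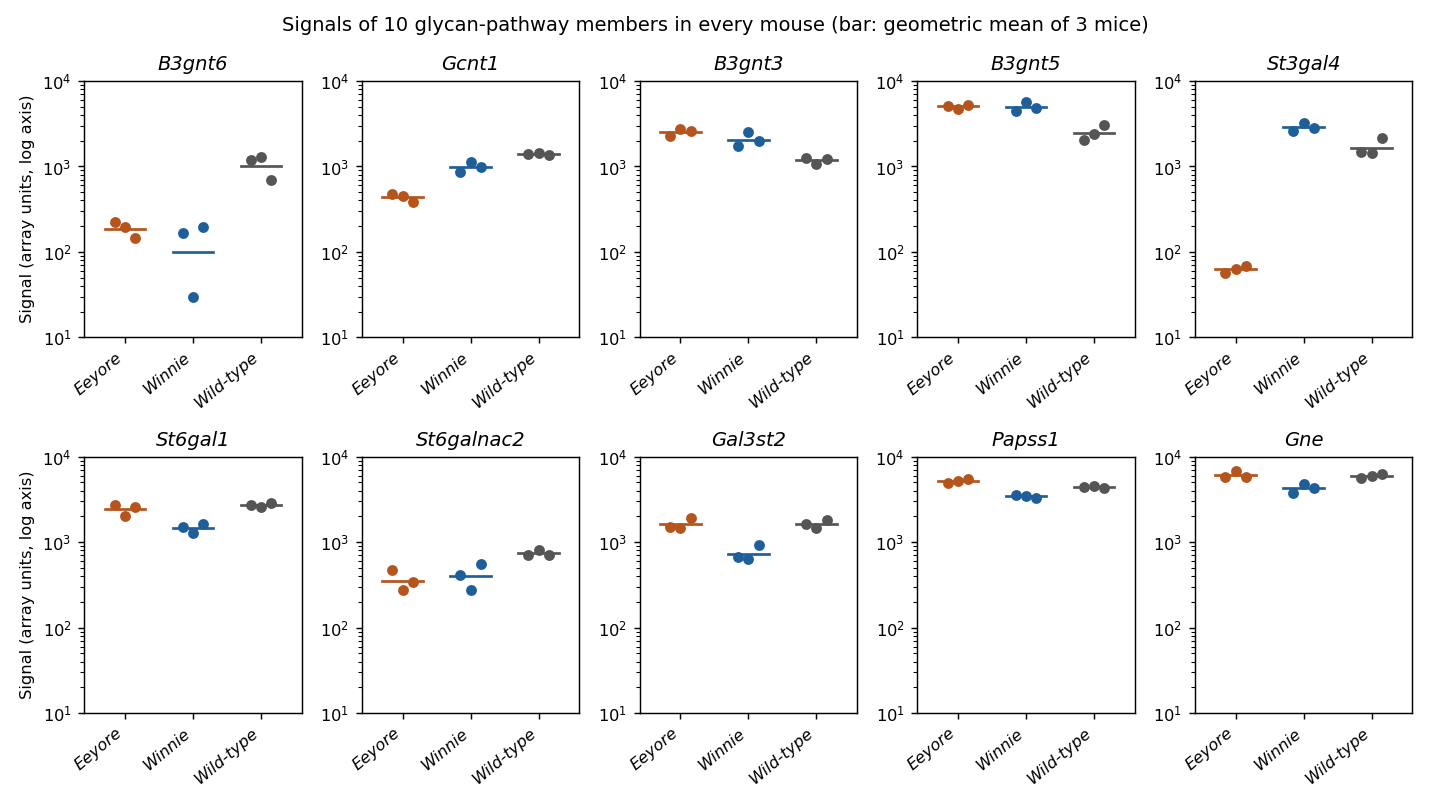
Signal of 10 genes in every mouse, on a log axis, in *Eeyore*, *Winnie* and wild-type mice (3 each); points are mice and bars are geometric means. The *Eeyore* mice sit between 56.4 and 68.3 for *St3gal4*, and the *Winnie* mice sit below both other groups for *Gal3st2*, *Papss1*, *St6gal1* and *Gne*.

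*St6gal1*, which caps lactosamine with sialic acid in another linkage, had signals of 2692, 2047 and 2565 in *Eeyore* mice and 1523, 1267 and 1614 in *Winnie* mice, against 2700, 2582 and 2860 in wild-type mice. The *Winnie* mice lay below all others. In *Winnie* it fell 1.86-fold (log2 -0.89 ± 0.13, limma adjusted p = 0.00106), in *Eeyore* the change was -0.17 ± 0.13 (limma adjusted p = 0.377), and *Eeyore* was higher than *Winnie* by 0.73 ± 0.13 (limma adjusted p = 0.0123). With the gene's probe sets averaged, the *Winnie* change was -0.60 (limma adjusted p = 0.0570) and the strain difference 0.71 (limma adjusted p = 0.109), so both calls were lost while the strain difference stayed close to its size.

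*St6galnac2*, a sialyltransferase of O-glycan cores, had signals of 468, 279 and 340 in *Eeyore* mice and 408, 278 and 558 in *Winnie* mice, against 710, 817 and 715 in wild-type mice. All mutant mice lay below wild type, and the mutants overlapped each other. It fell 2.11-fold in *Eeyore* (log2 -1.07 ± 0.25, limma adjusted p = 0.00839) and 1.87-fold in *Winnie* (log2 -0.90 ± 0.25, limma adjusted p = 0.0257). The *Winnie* call was lost without *Winnie* mouse 1 or 2 or any of the wild-type mice, with adjusted p up to 0.0930, and with centring on the array median (adjusted p = 0.150).

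*St6galnac6* rose in both strains, with signals of 7900 to 8586 in *Eeyore* and 7037 to 7585 in *Winnie*, against 4987 to 5430 in wild type. Its log2 change was 0.65 ± 0.08 in *Eeyore* (limma adjusted p = 2.3e-04) and 0.51 ± 0.08 in *Winnie* (limma adjusted p = 0.00166), and the *Winnie* call was lost with centring on epithelial markers (0.24). *St3gal1*, *St3gal3* and *St3gal6* were not called in either strain, with log2 changes of -0.53 to 0.01. *St6galnac1*, the sialyl-Tn synthase, was too dim to test, with signals of 16.6 to 122 in *Eeyore* and 38.6 to 92.1 in *Winnie*, against 17.1 to 59.0 in wild type.

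Of the fucosyltransferases, *Fut2*, which makes the H antigen on secreted mucins, had signals of 859 to 1273 in *Eeyore* and 841 to 1376 in *Winnie*, against 507 to 636 in wild type. It rose by 0.83 ± 0.21 in *Eeyore* (limma adjusted p = 0.0109) and 0.78 ± 0.21 in *Winnie* (limma adjusted p = 0.0193), and its other probe set was called higher in both as well. Both calls were lost with centring on epithelial markers, and that in *Winnie* without *Winnie* mouse 2 or wild-type mouse 3 (adjusted p of 0.0640 to 0.0699). *Fut8*, which adds core fucose to N-linked glycans, rose by 0.51 in *Winnie* and was not called in *Eeyore* (0.31). Another, dimmer *Fut8* probe set, with means of 140 in *Eeyore* and 241 in *Winnie*, against 303 in wild type, was called lower in *Eeyore* (log2 -1.13, limma adjusted p = 0.0419), and averaging the probe sets ended the *Winnie* call (adjusted p = 0.471). *Fut4* was not called, and *Fut1* had signals of 34.3 or less on every array.

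Sulphate is attached to galactose by *Gal3st2* and to N-acetylglucosamine by *Chst4*. *Gal3st2* had signals of 1516, 1474 and 1896 in *Eeyore* mice and 669, 628 and 936 in *Winnie* mice, against 1639, 1448 and 1815 in wild-type mice. The *Winnie* mice lay below all others, and *Eeyore* overlapped wild type. It fell 2.22-fold in *Winnie* (log2 -1.15 ± 0.17, limma adjusted p = 0.00100), changed by -0.01 ± 0.17 in *Eeyore* (limma adjusted p = 0.979), and was 2.21-fold higher in *Eeyore* than in *Winnie* (log2 1.14 ± 0.17, limma adjusted p = 0.00323). *Chst4* varied widely within groups (705 to 1425 in *Eeyore* and 618 to 1513 in *Winnie*, against 511 to 983 in wild type) and was not called.

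Supply of sulphate and sialic acid changed on a smaller scale. *Slc26a2*, the sulphate transporter, had signals of 7171 to 8792 in *Eeyore* and 8398 to 11942 in *Winnie*, against 13154 to 14260 in wild type. It fell by 0.84 ± 0.13 in *Eeyore* (limma adjusted p = 6.1e-04) and fell by 0.50 ± 0.13 in *Winnie* (limma adjusted p = 0.0152), and all 3 of its probe sets fell in both strains. The *Winnie* call was lost with centring on the array median (log2 -0.09) and without *Winnie* mouse 2 or wild-type mouse 1 or 2 (adjusted p of 0.0529 to 0.0579).

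*Papss1*, which makes the activated sulphate donor, had signals of 4864, 5154 and 5553 in *Eeyore* mice and 3583, 3438 and 3259 in *Winnie* mice, against 4454, 4525 and 4259 in wild-type mice. The 3 groups did not overlap, with *Winnie* lowest and *Eeyore* highest. *Eeyore* was higher than *Winnie* by 0.60 ± 0.09 (limma adjusted p = 0.00357), a call that held under every scaling. Against wild type the log2 change was 0.23 in *Eeyore* (limma adjusted p = 0.0742) and -0.37 in *Winnie* (limma adjusted p = 0.0149), and the *Winnie* value turned to 0.04 with centring on the array median and lost its call without *Winnie* mouse 3 or wild-type mouse 2 (adjusted p of 0.0585 to 0.0602).

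*Gne*, which opens sialic acid synthesis, had signals of 5749, 6732 and 5868 in *Eeyore* mice and 3794, 4773 and 4295 in *Winnie* mice, against 5614, 5912 and 6209 in wild-type mice. The *Winnie* mice lay below all others. It fell by 0.47 ± 0.11 in *Winnie* (limma adjusted p = 0.00962), and *Eeyore* was higher than *Winnie* by 0.52 ± 0.11 (limma adjusted p = 0.0257). Both calls were lost with centring on the array median, and the strain difference was lost without *Eeyore* mouse 2, *Winnie* mouse 1 or 3 or wild-type mouse 2 (adjusted p of 0.0526 to 0.123) and with the wild-type arrays left out of the fit (adjusted p = 0.0690). Another probe set did not share this order, with means of 1943 in *Eeyore* and 2266 in *Winnie*, against 2787 in wild type, and was called lower in *Eeyore* (log2 -0.52, limma adjusted p = 0.0355). *Cmas*, which activates sialic acid, rose by 0.42 in *Winnie* (limma adjusted p = 0.00848) and was not called in *Eeyore* (0.23), with the *Winnie* call lost under centring on epithelial markers (0.15), and *Papss2* and *Slc35a1* were not called in either strain.

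Between the mutant strains, 6 of the 40 genes differed, 4 higher and 2 lower in *Eeyore*, where 2.59% of all tested genes were called (1.29% higher and 1.30% lower). *St3gal4* and *Gcnt1* were lower and *Gal3st2*, *St6gal1*, *Papss1* and *Gne* were higher in *Eeyore*. Of these, *St3gal4*, *Gal3st2* and *Papss1* kept their call under all 20 alternatives tried. Each of them has a single probe set, so averaging probe sets, 1 of the 20, gave back the same log2 values. *Gcnt1*, *St6gal1* and *Gne* have 2 probe sets each and all lost their call under that averaging, *Gcnt1* under that alternative alone. *Galnt10* gained a call under the averaging (-1.46, limma adjusted p = 0.00320), with 1 of its 3 probe sets too dim to test. Differences of at least 2-fold were called higher in *Eeyore* for 1 gene (0.699% of all tested genes) and lower for 2 (0.612% of all tested genes). The signals of *Eeyore* and *Winnie* mice did not overlap for 12 of the 40 genes, where 20.9% of all tested genes did not. Of the 13 goblet cell markers, 3 were higher and 1 was lower in *Eeyore* than in *Winnie*. Markers of other cells differed as well: 3 of 10 for smooth muscle, 2 of 6 for enteroendocrine cells and 1 of 6 for epithelium were lower in *Eeyore*. The part of these differences in the 6 genes was not tested.

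**Figure D3:**
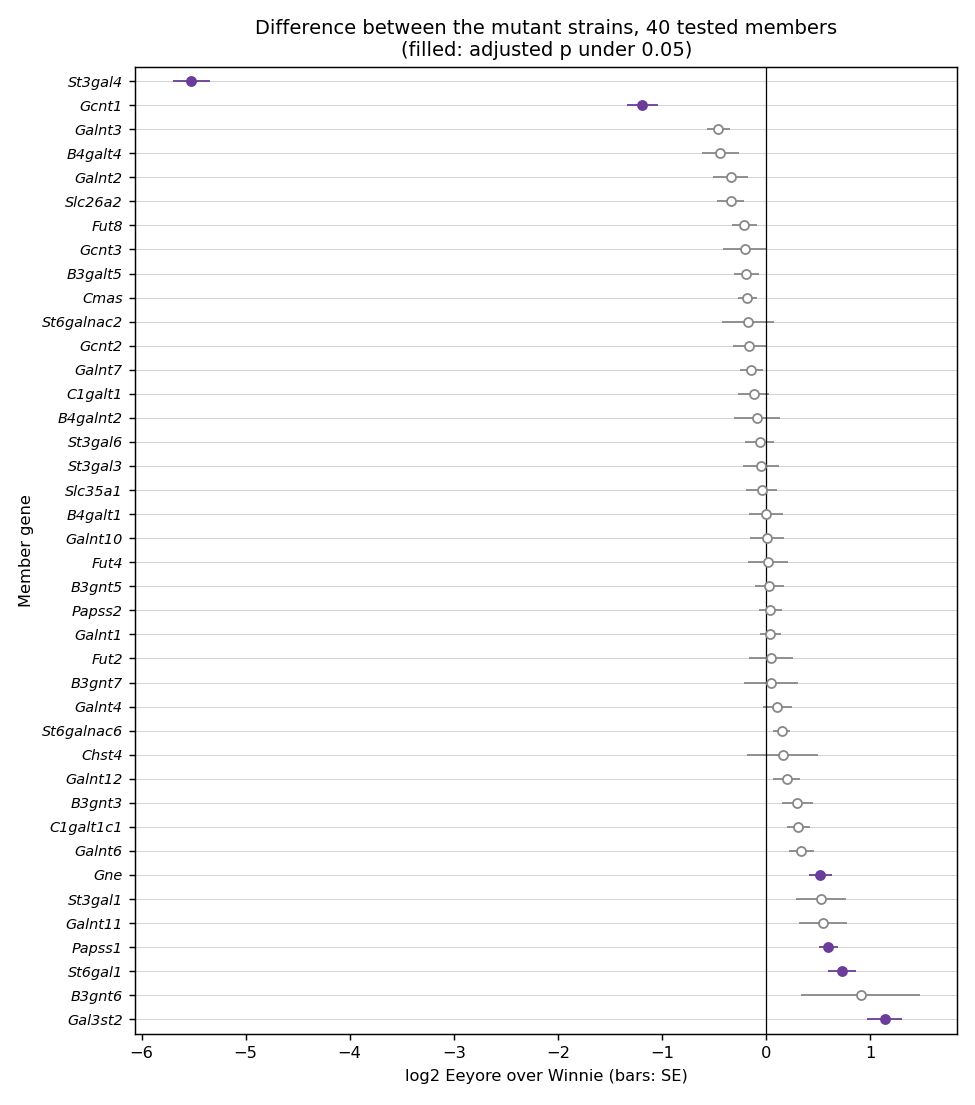
Log2 difference between *Eeyore* and *Winnie* for the 40 tested genes, ordered from lowest to highest. Points are limma estimates from 3 mice per strain, bars are standard errors, and the 6 filled points have an adjusted p under 0.05, from *St3gal4* at -5.52 to *Gal3st2* at 1.14.

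*Muc2* fell so far that most genes of any kind were higher relative to it on the same array, and the counts of higher genes describe that fall. In *Eeyore*, 33 of 40 were called higher and 3 lower relative to *Muc2*, where 76.0% of all tested genes were called higher and 1.24% lower. In *Winnie*, 36 were called higher and 1 lower, where 82.3% of all tested genes were called higher and 0.367% lower. The genes called lower relative to *Muc2* in *Eeyore* were *B3gnt6* (-1.32), *Gcnt1* (-0.56) and *St3gal4* (-3.60, with its *Eeyore* signal not told from background). *B3gnt6* (-2.09) was the one in *Winnie*. The *Gcnt1* value is that of its brightest probe set. Its other probe set changed by 0.29 in *Eeyore* against wild type and was not called, where *Muc2* changed by -1.13. Leaving out 1 array at a time gave 1 to 3 lower calls relative to *Muc2* in *Eeyore*. *Gal3st2*, *St6gal1* and *St6galnac2* in *Winnie* and *Gcnt2*, *B4galt4*, *St6galnac2* and *Slc26a2* in *Eeyore* were not called relative to *Muc2*.

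Where a gene had several probe sets, they did not always agree. Over 24 genes with more than 1 tested probe set, 37 other probe sets were set beside the brightest one. The sign was the same for 23 of 37 in *Eeyore* and 29 of 37 in *Winnie*, both were called in the same direction for 6 in each strain, and 0 were called in opposite directions by limma (1 in *Eeyore* and 0 in *Winnie* at an unadjusted p under 0.05).

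**Figure D4:**
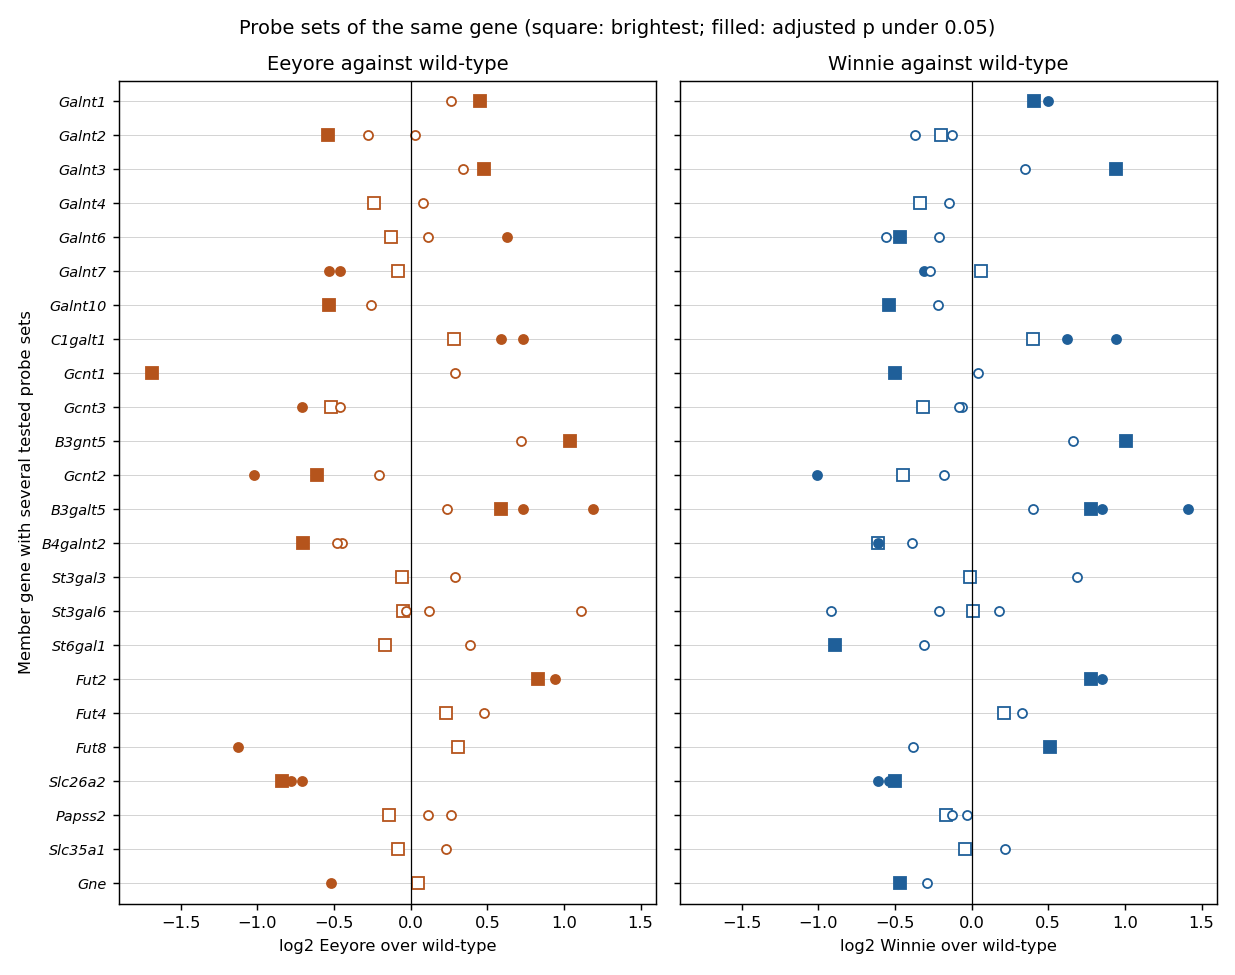
Log2 change over wild type of every tested probe set of the 24 genes that have several, in *Eeyore* (left) and *Winnie* (right). Squares are the brightest probe set of a gene, circles are its other ones, and filled symbols have an adjusted p under 0.05. The probe sets of *B3galt5*, *Fut2* and *Slc26a2* each lay on 1 side of 0 in both strains, and those of *Gcnt1*, *Gne* and *Fut8* lay on both sides of 0 in *Eeyore*.

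The promoters of 4 genes are shown because they are the ones among the 10 genes given mouse by mouse for which RefSeq gives a single promoter. *B3gnt3* and *B3gnt5* rose in both strains, and *St3gal4* and *Gal3st2* differed between them. Each sequence runs from 250 bases before to 50 bases after a start that the RefSeq table (GRCm38.p6) takes for the gene. This is the outermost annotated start for *St3gal4* and *Gal3st2* and lies 826 bases inside it for *B3gnt3* and 42 bases inside it for *B3gnt5*. The windows are at chr8:71701751-71702050 on the minus strand for *B3gnt3*, chr16:19759984-19760283 on the plus strand for *B3gnt5*, chr9:35116815-35117114 on the minus strand for *St3gal4* and chr1:93861094-93861393 on the plus strand for *Gal3st2*. Capitals mark ACGTG, the core letters of motifs bound by unfolded protein response factors, or its reverse complement.
B3gnt3: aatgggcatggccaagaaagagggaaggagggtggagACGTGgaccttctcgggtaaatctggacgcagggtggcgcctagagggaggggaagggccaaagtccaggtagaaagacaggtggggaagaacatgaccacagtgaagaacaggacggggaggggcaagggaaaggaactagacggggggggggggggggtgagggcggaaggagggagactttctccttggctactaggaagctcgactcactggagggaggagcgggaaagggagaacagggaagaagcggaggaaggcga
B3gnt5: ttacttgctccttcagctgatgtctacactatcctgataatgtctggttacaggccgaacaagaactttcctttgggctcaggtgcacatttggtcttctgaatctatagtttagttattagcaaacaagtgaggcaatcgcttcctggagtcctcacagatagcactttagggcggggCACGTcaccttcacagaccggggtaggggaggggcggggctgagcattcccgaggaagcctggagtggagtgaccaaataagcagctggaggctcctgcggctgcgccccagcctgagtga
St3gal4: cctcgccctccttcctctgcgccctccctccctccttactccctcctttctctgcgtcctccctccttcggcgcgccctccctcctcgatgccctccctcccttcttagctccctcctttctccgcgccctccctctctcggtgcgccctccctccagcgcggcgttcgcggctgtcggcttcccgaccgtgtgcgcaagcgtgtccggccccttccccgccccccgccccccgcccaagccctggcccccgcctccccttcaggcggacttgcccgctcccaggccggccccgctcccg
Gal3st2: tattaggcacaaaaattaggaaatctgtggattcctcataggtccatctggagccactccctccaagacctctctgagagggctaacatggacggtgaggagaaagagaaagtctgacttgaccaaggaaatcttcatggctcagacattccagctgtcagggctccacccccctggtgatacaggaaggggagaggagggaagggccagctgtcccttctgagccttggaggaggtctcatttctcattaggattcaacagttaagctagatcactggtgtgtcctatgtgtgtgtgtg
*B3gnt3* and *B3gnt5* each held ACGTG 1 time, and *St3gal4* and *Gal3st2* did not hold it in this window. Over the 30 genes with a RefSeq promoter, 11 held ACGTG on either strand in at least 1 promoter, where 19.6% of all 32851 promoters of the same length held it. Some genes have several promoters, so the count and the share are not on the same base. CCAAT was held by 8 of the 30 (37.4% of all promoters) and TATAAA by 2 of the 30 (13.6%), both strands searched. The 4 printed promoters held neither. Guanine and cytosine made up 74% of the *St3gal4* window, 60.3% of that of *B3gnt3*, 53.3% of that of *B3gnt5* and 50.3% of that of *Gal3st2*, beside a median of 52.7% over all promoters.

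Related enzymes outside the 42 genes were counted in the same way. Of 43 other O-glycan transferases listed, 39 had a probe set of their own and 20 were tested, with 1 higher and 2 lower in *Eeyore* (14.0% and 16.6% of all tested genes) and 1 higher and 1 lower in *Winnie* (11.3% and 12.0% of all tested genes). *A4gnt*, which caps gastric mucins with N-acetylglucosamine, fell by 1.54 ± 0.32 in *Eeyore* (limma adjusted p = 0.00427) and fell by 2.61 ± 0.32 in *Winnie* (limma adjusted p = 3.5e-04), with signals of 144 to 239 in *Eeyore* and 65.1 to 140 in *Winnie*, against 478 to 600 in wild type. The *Winnie* signals of 65.1 and 69.3 were below 85.9, so the size of that fall is uncertain. *Fut11* fell by 0.67 and *Abo*, the blood group transferase, rose by 0.86 in *Eeyore*, and *B4galt6* rose by 0.71 in *Winnie*.

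Of 25 other genes for sugar and sulphate donors, 22 were tested and can be set beside the same shares, with 7 higher and 0 lower in *Eeyore* and 4 higher and 0 lower in *Winnie* by limma (0 lower at an unadjusted p under 0.05 in each). Calls of these 22 genes under the other scalings were not counted. Centring on epithelial markers moved the median of all tested probe sets to -0.324 in *Eeyore* and -0.360 in *Winnie*, so this balance cannot be read apart from scaling. In *Eeyore* the largest called rises were *Gmds*, which begins GDP-fucose synthesis (0.72 ± 0.09, limma adjusted p = 2.3e-04), the GDP-fucose transporter *Slc35c1* (0.65 ± 0.14, limma adjusted p = 0.00456) and *Bpnt1*, which clears the by-product of sulphation (0.50 ± 0.11, limma adjusted p = 0.00642). In *Winnie* they were the UDP-N-acetylglucosamine transporter *Slc35a3* (0.47), the UDP-glucose enzyme *Ugp2* (0.37) and *Gnpnat1* (0.36). *Gmds* was also higher in *Eeyore* than in *Winnie* (0.39 ± 0.09, limma adjusted p = 0.0448).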

How the data were processed

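Total RNA of large intestine from 9 mice was labelled with the One-Cycle kit and hybridised to Affymetrix mouse whole-genome expression arrays, 1 array per mouse. The authors deposited linear signal intensities for 45101 probe sets per array; on every array their mean was 500 once the extreme 2% at either end was set aside. The signal algorithm is not given in the sources used here. Of 45037 non-control probe sets, 34945 carried 1 gene symbol in the platform annotation, 932 several and 9160 none, and 59 older symbols were updated through RefSeq.

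Signals were taken to log2, and probe sets with a mean log2 signal under the 50th percentile (6.43) were left out. The 22519 probe sets that remained were fitted on all 9 arrays with limma 3.58.1 (R 4.3.3; lmFit, eBayes with intensity trend), with Benjamini-Hochberg adjustment over all of them and a threshold of 0.05. Called means an adjusted p under 0.05, and an error after ± is a standard error unless stated. Changes are log2 values unless given as folds. Fits relative to *Muc2* used the log2 signal minus that of *Muc2* on the same array. The code was tested on simulated data. Figures were drawn with matplotlib 3.10.9.

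For each gene the brightest probe set that carried its symbol alone was used. Signals of every mouse are given for genes called with at least a 2-fold change from wild type in either strain, or called between strains, which gave 10 genes. Of the related lists, the 3 largest called changes in each strain are named. The genes and lists were chosen with earlier results of these data known. The neighbours of *St3gal4* and the promoter motifs were looked up after its values were seen. Alternatives were other scalings, filters, variance models and probe set summaries, a replicate block, and leaving out each array. Some listed genes, such as *Gcnt4* and *Gal3st3*, had no probe set of their own in the annotation used and were not analysed here.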

Additional observations from a re-analysis of the deposited data

Results flagged for a closer look

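Of the 40 tested genes, 6 had a difference between the mutant strains that passed the test of the difference itself (limma, 3 *Eeyore* against 3 *Winnie* mice). On the log2 scale of *Eeyore* over *Winnie*, *St3gal4* differed by a measured -5.52 (limma adjusted p = 6.2e-09), with *Eeyore* signals that could not be told from background, and *Gcnt1* by -1.19 (limma adjusted p = 8.3e-04). *Gal3st2* differed by 1.14 (limma adjusted p = 0.00323), *St6gal1* by 0.73 (limma adjusted p = 0.0123), *Papss1* by 0.60 (limma adjusted p = 0.00357) and *Gne* by 0.52 (limma adjusted p = 0.0257). In all 6 genes the 3 *Eeyore* mice did not overlap the 3 *Winnie* mice, where 20.9% of all tested genes did not. The 6 were picked by a test on these same mice, so this separation adds no support of its own. The mixed strain of *Eeyore* and its *Muc2* allele cannot be told apart in any of them.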

How the results depend on the processing

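Counts below are of the 40 tested genes, and shares of all tested genes were not counted under the other scalings and fits. Against wild type, calls in *Winnie* numbered 20 (10 higher, 10 lower): centring on the array median gave 3 lower, centring on epithelial markers 5 higher and 16 lower, and averaging probe sets 5 lower. Calls in *Eeyore* numbered 18 (8 higher, 10 lower): centring on the array median gave 15 higher and 5 lower, and centring on epithelial markers 5 higher and 16 lower. *Eeyore* against *Winnie*, with 4 higher, had 2 higher without the intensity trend and 2 higher with averaged probe sets. Requiring at least 2-fold as well left 3 in *Winnie* (1 higher, 2 lower), 6 in *Eeyore* (2 higher, 4 lower) and 3 between strains (1 higher). A plain 2-fold ratio of mean signals, with no test, gave 2 in *Winnie* (0 higher, 2 lower), 6 in *Eeyore* (2 higher, 4 lower) and 3 between strains (1 higher). The scalings moved the median of all tested probe sets from -0.088 to 0.321 (median centring) or -0.360 (epithelial centring) in *Winnie* and from -0.090 to 0.235 or -0.324 by the same centrings in *Eeyore*.

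Leaving out 1 array at a time gave 15 to 22 calls in *Winnie* (9 to 11 higher, 5 to 11 lower), 14 to 20 in *Eeyore* (8 to 9 higher, 6 to 11 lower) and 5 to 7 between strains (3 to 4 higher, 2 to 3 lower). The lower calls in *Winnie* were 5 without wild-type mouse 1, 5 without wild-type mouse 2 and 6 without *Winnie* mouse 2, and those in *Eeyore* were 6 without wild-type mouse 1 or 2. Relative to *Muc2*, leaving out 1 array gave 1 to 3 lower calls in *Eeyore*, with 1 left without wild-type mouse 2, and 1 in *Winnie* each time. *Papss1* in *Winnie* reversed to 0.04 with median centring (limma adjusted p = 0.762). The cause of these shifts was not tested. Deviations of same-numbered mice of different groups correlated weakly (r from -0.008 to 0.164 over 9 pairs, 7 of them above 0). Of the 9 arrays, 8 correlated best with an array of their own number in another group. The labels do not say that the numbers pair the mice, and the main fit left them out. With the replicate number as a block, calls numbered 20 in *Winnie*, 19 in *Eeyore* and 6 between strains, and, relative to *Muc2*, 37 in *Winnie* and 36 in *Eeyore*. With 3 mice per group, the number of arrays limits the precision of every value.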
